A study of Mus musculus with 23 samples.

Results

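The genes described are 6 Siglec receptor genes, Cd22, Cd33, Siglec1, Siglece, Siglecf and Siglecg, chosen by gene symbol from the 53090 genes in the tables of all 23 libraries. Messenger RNA was measured in microglia, the resident macrophages of the brain, from female C57BL/6 mice. The groups were young (Y in the labels, n = 7), young repopulated (Y-re, n = 3), old (O, n = 5) and old repopulated (O-re, n = 8). The drug for depletion was PLX5622, which blocks CSF1R, a receptor that microglia need to survive. It was given in AIN-76A chow at 1200 ppm, and the control diet was the same chow without the drug. After the drug is withdrawn, new microglia refill the brain, which is called repopulation. The labels state neither ages, nor the length of treatment, nor the time allowed for refilling, nor the number of mice behind a library. P-values therefore measure the spread between these libraries, which may in part be technical. The protocols mention cultured cells selected on CD11b beads as well as cells sorted in a cytometer; for the RNA they name the sorted ones.

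Siglecs are cell-surface receptors of the immunoglobulin superfamily that bind sialic acids, the acidic sugars at the tips of glycans on most cells of the body. Most carry short tyrosine motifs in their tails (ITIMs) that recruit the phosphatases SHP-1 and SHP-2 and dampen activating signals, so that a sialylated surface is read as "self". A few instead pair with the adaptor DAP12, the product of Tyrobp, and can pass an activating signal. In the brain, Siglecs of microglia are studied as brakes on the uptake of debris and synapses, and the human gene CD33 is known as an Alzheimer's disease risk gene.

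Depth, in units of 1000000 counts, was 43.93 to 47.85 for the young group, 44.9 to 47.77 for young repopulated, 43.66 to 50.98 for old and 45.73 to 58.19 for old repopulated. Each title carries a library number, and these numbers fall into 2 runs, a lower one of 1 to 11 and a higher one of 12 to 24. What separates the runs was not given in the sources used here, so values within each run stand beside the main results. In the lower run were 5 libraries of the old repopulated, 3 of the young and 2 of the old group. All 3 of the young repopulated group were in the higher run, with 4 young, 3 old and 3 old repopulated ones. Young replicate 3 stood apart, with the fewest genes that had a count, 16399. The summed level of 8 microglia markers, in counts per 1000000 scaled by TMM (CPM), was 23600 to 29200 CPM in young and 21200 to 24600 CPM in young repopulated libraries. It spread from 9580 to 24500 CPM in old and from 8840 to 27500 CPM in old repopulated libraries. In bulk RNA, fewer cells of a type and less RNA per cell cannot be told apart.

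On mouse build GRCm38, 5 of the 6 genes lie on chromosome 7 and Siglec1 lies on chromosome 2. All are annotated as protein coding. Siglecf (43351341 to 43359531, plus strand), Siglecg (43408204 to 43418358, plus strand), Cd33 (43524216 to 43544428, minus strand) and Siglece (43651070 to 43660161, minus strand) form one cluster on chromosome 7. Cd22 (30865402 to 30880342, minus strand) lies apart on the same chromosome, and Siglec1 spans 131069220 to 131086765 on the minus strand of chromosome 2.

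RefSeq promoter windows of 300 bases (250 before to 50 after the annotated start, build GRCm38.p6) were found for 5 of the 6 genes. The windows of Cd33 and Siglecf are printed because these genes of the cluster shared longer stretches with each other than any other pair did, and because both are among the genes that were lower in the old repopulated libraries of the higher run. Capitals mark the runs of at least 12 bases that both windows hold. The Cd33 window is chr7:43533122-43533421 on the minus strand and lies inside the annotated gene span, and the Siglecf window is chr7:43351091-43351390 on the plus strand.
Cd33: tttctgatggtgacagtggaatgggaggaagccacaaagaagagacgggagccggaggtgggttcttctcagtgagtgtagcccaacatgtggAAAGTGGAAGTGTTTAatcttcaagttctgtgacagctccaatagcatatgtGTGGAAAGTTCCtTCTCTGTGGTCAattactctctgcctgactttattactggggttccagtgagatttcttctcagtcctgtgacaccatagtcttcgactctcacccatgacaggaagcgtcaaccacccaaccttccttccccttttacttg
Siglecf: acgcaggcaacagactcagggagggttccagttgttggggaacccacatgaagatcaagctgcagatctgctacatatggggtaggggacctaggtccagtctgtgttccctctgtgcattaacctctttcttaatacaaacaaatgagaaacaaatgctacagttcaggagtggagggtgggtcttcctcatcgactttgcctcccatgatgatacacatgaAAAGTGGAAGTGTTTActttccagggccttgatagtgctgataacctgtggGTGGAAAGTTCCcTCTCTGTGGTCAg
The longest shared run had 16 bases, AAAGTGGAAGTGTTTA, at positions 94 to 109 of the Cd33 window and 224 to 239 of the Siglecf window, counted from 1 at the 5′ end. The others were GTGGAAAGTTCC (146 to 157 in Cd33, 275 to 286 in Siglecf) and TCTCTGTGGTCA (159 to 170 in Cd33, 288 to 299 in Siglecf). The first and the second occurred in 2 of 32851 promoter windows each (0.00609%), and the third in 9 (0.0274%). These counts include the Cd33 and Siglecf windows, from which the runs were taken, so 2 is the lowest count possible. The longest run shared by any other pair of the windows had 10 bases. The letters GGAAGT, a core that the myeloid factor PU.1 is known to bind, were searched on both strands and lie within the 16-base run. They had 1 match in each of these windows and none in those of Cd22, Siglece and Siglecg, against 23.8% of all promoter windows with at least 1. These matches describe the windows only.

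Levels per transcript length, as transcripts per 1000000 (TPM), put Cd33 first and Siglecg last of the 6 genes in all 23 libraries. In young microglia Cd33 was at 250 ± 24.1 TPM (SD, n = 7), Cd22 at 34.7 ± 6.18 TPM, Siglecf at 31.3 ± 6.62 TPM, Siglece at 28.6 ± 3.6 TPM, Siglec1 at 19.2 ± 2.56 TPM and Siglecg at 0.89 ± 0.644 TPM. The ranges of Cd22, Siglecf and Siglece overlapped in young libraries, so these neighbours in the order did not differ beyond their spread. Siglec1 (16.6 to 22.9 TPM) lay below the lowest Siglece value (23.2 TPM) and was the fifth of 6 in each young library.

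The order of the middle genes was different in the other groups. Siglec1 ranked second after Cd33 in 5 of 8 old repopulated, 2 of 5 old and 1 of 3 young repopulated libraries, and in none of the 7 young ones. Its share of the summed TPM of the 6 genes was 5.29% ± 0.865 (SD, n = 7) in young, 11.8% ± 3.01 (n = 3) in young repopulated, 16.1% ± 11.8 (n = 5) in old and 18% ± 9.48 (n = 8) in old repopulated libraries. The share of Cd33 was 68.5% ± 1.6 in young, 63% ± 4.28 in young repopulated, 57.7% ± 9.12 in old and 57.4% ± 7.77 in old repopulated libraries. Siglecf was the fifth in all 3 young repopulated libraries.

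**Figure D1:**
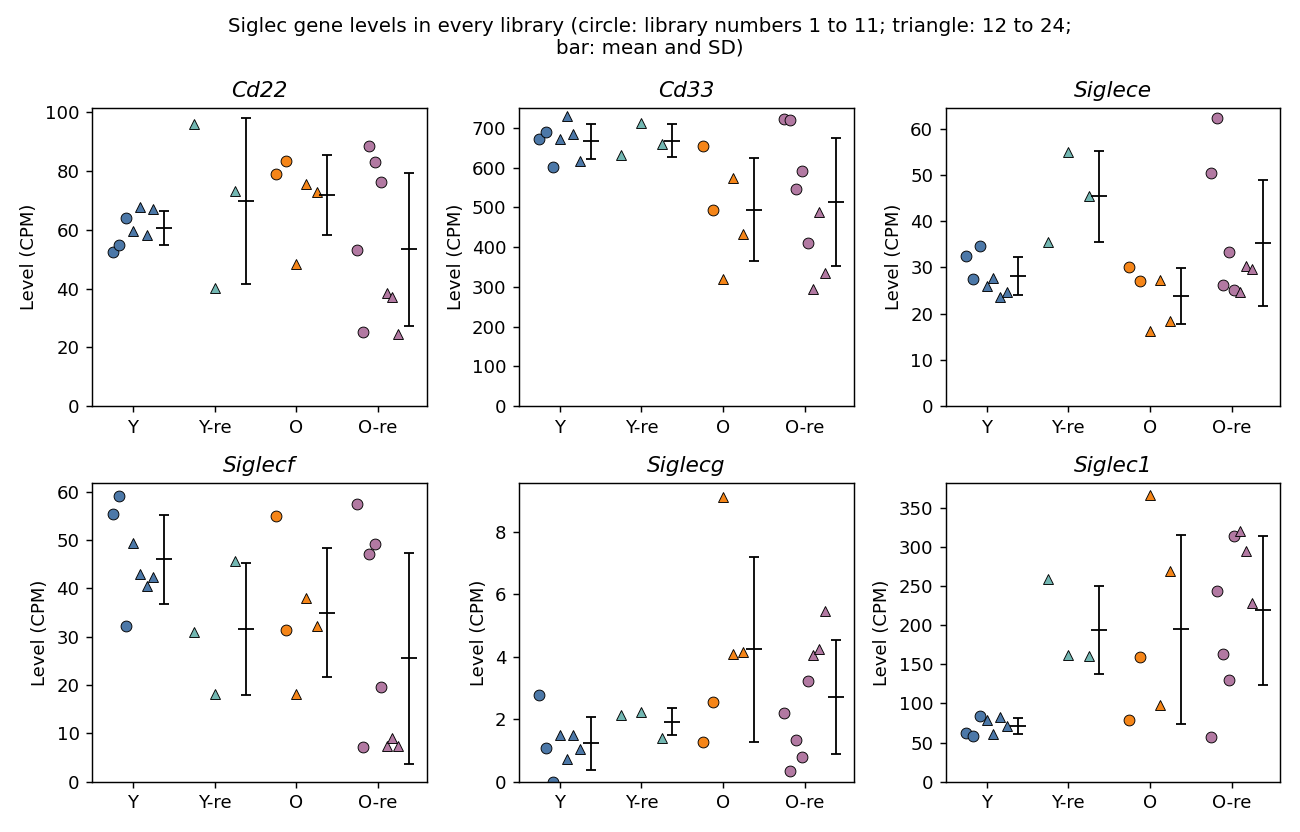
Level of each Siglec gene in each library, in CPM, by group, with the group mean and SD; circles are libraries numbered 1 to 11 and triangles those numbered 12 to 24. Siglec1 lies between 58.7 and 84.1 CPM in the 7 young libraries and between 161 and 259 CPM in the 3 young repopulated ones.

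Siglec1 was the only gene of the 6 that edgeR called higher in the fit of all libraries without a run term. It encodes sialoadhesin (CD169), a long adhesion receptor of macrophages that carries no inhibitory motif and is known to be induced by interferon. Its level in young libraries was 58.7 CPM at the lowest, 71.3 CPM at the median and 84.1 CPM at the highest. The 5 old libraries were at 79.4, 159, 366, 98.6 and 270 CPM (replicates 1 to 5), and the 3 young repopulated ones at 259, 162 and 161 CPM. Old repopulated libraries ranged from 57.2 CPM, through a median of 236 CPM, to 320 CPM. Of the old libraries, 4 of 5 were above every young one, as were 7 of 8 old repopulated and 3 of 3 young repopulated libraries.

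The comparison of old with young asked how age alone was related to these genes. Siglec1 was 2.73-fold higher in old than in young libraries (log2 1.45 ± 0.35 SE, adjusted p = 0.0251, edgeR quasi-likelihood test adjusted over 18720 genes). It was 1 of 6 Siglec genes called, where 2.83% of all genes tested were called in either direction and 2.6% as higher. The call was lost without young replicate 1, 2, 5 or 7 (adjusted p = 0.0502 to 0.0533), without old replicate 3 (log2 1.09, adjusted p = 0.186) and without old replicate 5 (log2 1.3, adjusted p = 0.0916). Within the higher run the difference was 1.74 (adjusted p = 0.00385) and within the lower run 0.80 (adjusted p = 1), where 1 of 18746 genes was called.

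In old repopulated libraries Siglec1 was 3.08-fold higher than in young ones (log2 1.62 ± 0.32, adjusted p = 0.00257). It was again 1 of 6 Siglec genes called, where 15.2% of all genes were called in either direction and 9.29% as higher. This call was kept in all 23 fits that left out 1 library. Within the higher run the difference was 1.95 (adjusted p = 0.000618), and within the lower run it was 1.41 (adjusted p = 0.384). The comparisons with young share the young libraries, so they are not independent of each other.

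Repopulation in young mice gave a difference of the same size that did not pass the test. Siglec1 was at log2 1.44 ± 0.40 in young repopulated against young libraries (95% interval 0.62 to 2.26, adjusted p = 0.0716). None of the 6 genes was called by edgeR in this comparison, where 1.34% of all genes were. At an unadjusted p under 0.05 there were 2 genes, Siglec1 and Siglece. DESeq2 called 1 of the 6 (4.2% of all genes) and limma-voom with sample weights called 2 (13.8%). Siglec1 was called within the higher run (log2 1.43, adjusted p = 0.0174), and also without old replicate 1 (adjusted p = 0.0478), old replicate 3 (0.0459) or old repopulated replicate 1 (0.0247). Siglec1 and Siglece were the 2 of 6 genes whose young repopulated libraries all lay above all young ones, as 5.97% of all genes did.

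Repopulation in old mice left Siglec1 at log2 0.17 ± 0.35 relative to old libraries (95% interval -0.54 to 0.88, adjusted p = 0.943), with overlapping groups. Taken as the effect in old minus that in young mice, the difference of repopulation effects was -1.27 ± 0.53 for Siglec1 (unadjusted p = 0.0242, adjusted p = 0.549). The difference between the age groups in their response was therefore not called.

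Markers of other macrophages moved with Siglec1. Border-associated macrophages, which sit along vessels and in the meninges, carry much Siglec1. The summed level of 9 of their markers was 73.2 to 249 CPM in young, 317 to 444 CPM in young repopulated, 195 to 906 CPM in old and 73.6 to 1270 CPM in old repopulated libraries. Of these 9 genes, 2 were called higher in old than young, 1 in young repopulated than young and 5 in old repopulated than young. Over all genes tested, 2.6%, 0.828% and 9.29% were called higher in these comparisons. None of the 9 was at 0 throughout a group. Old repopulated replicate 1 had the lowest Siglec1 level of its group, 57.2 CPM, and the lowest border macrophage sum, 73.6 CPM.

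The sum of 8 monocyte markers was 272 to 1630 CPM in young, 620 to 1110 CPM in young repopulated, 491 to 4530 CPM in old and 362 to 7450 CPM in old repopulated libraries. Of the 8 genes, 5 were called higher in old than young and 6 in old repopulated than young, where 2.6% and 9.29% of all genes were. None was called between young repopulated and young libraries by edgeR, where 1.34% of all genes were. There 7 of the 8 were positive, with a median log2 difference of 1.23. All 8 were positive in old and in old repopulated against young libraries, with medians of 3.82 and 3.78. Over all genes tested the medians were -0.035, -0.012 and -0.017 in the same order. Fn1 was the highest of the 8 in every group, with means of 899 CPM in young, 636 in young repopulated, 1210 in old and 2350 in old repopulated libraries. The part of either cell type in the Siglec1 result was not tested.

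Genes of the interferon response were counted beside Siglec1 because of its known induction by interferon. All 16 genes of that list had positive differences between old and young libraries, with a median log2 difference of 0.87, against -0.01 over all genes tested. Of the 16, 2 were called, where 2.6% of all genes were called higher. Between old repopulated and old libraries none of the 16 was positive and the median was -1.13. There 2 were called lower, where 0.278% of all genes were called in either direction. The summed level was 824 to 1410 CPM in young, 908 to 1180 CPM in young repopulated, 1150 to 3320 CPM in old and 300 to 1380 CPM in old repopulated libraries. The part of the interferon response in the Siglec1 result was not tested.

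**Figure D2:**
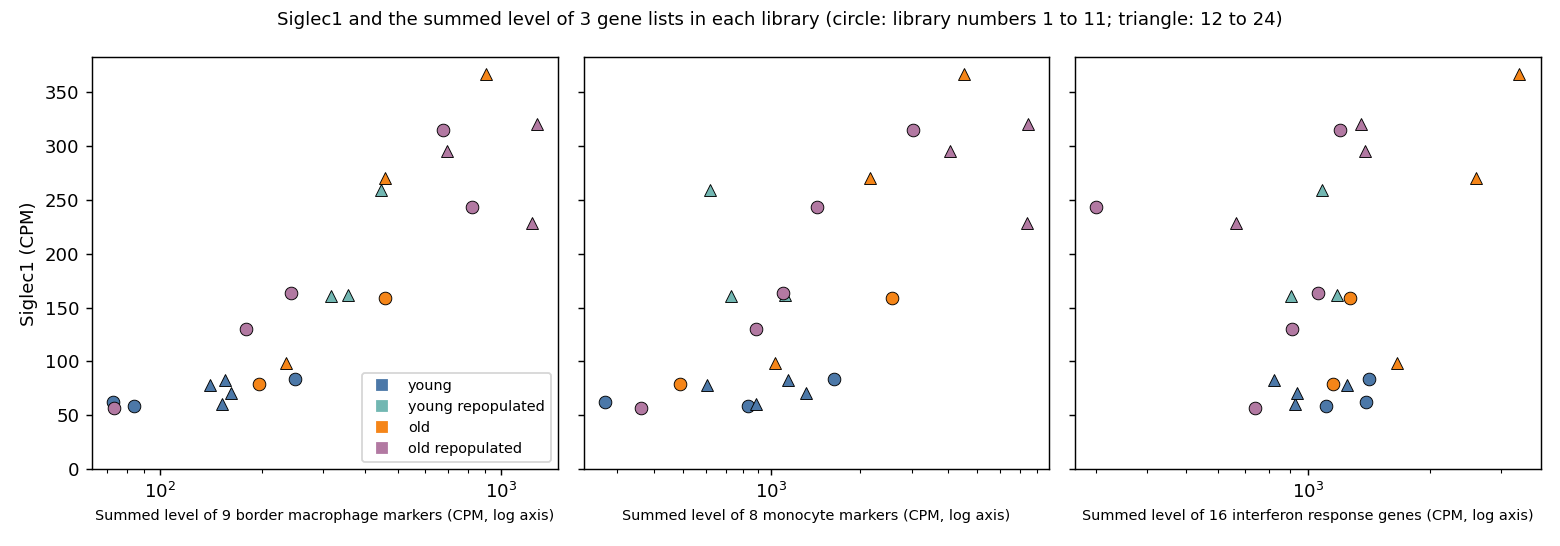
Siglec1 in CPM against the summed CPM, on a log axis, of 9 border macrophage markers, 8 monocyte markers and 16 interferon response genes; each point is 1 library, coloured by group. The young libraries sit together at the low end of the border macrophage sum, 73.2 to 249 CPM, and the old and old repopulated libraries spread over a range up to 906 and 1270 CPM.

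Cd22 is the first of the inhibitory receptors. It is best known from B cells, where it restrains the B cell receptor, and it has been described as a brake on phagocytosis in aged microglia. Young libraries held 52.6 to 67.8 CPM with a median of 59.6 CPM. The old libraries were at 79.1, 83.2, 48.4, 75.6 and 73.0 CPM (replicates 1 to 5), so 4 of 5 lay above every young library and replicate 3 below all of them. Young repopulated libraries were at 96.0, 40.2 and 73.1 CPM, and old repopulated ones ran from 24.6 CPM through a median of 45.8 CPM to 88.6 CPM.

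The old groups thus overlapped with the young one, and no difference of Cd22 was called in the fit of all libraries. It was log2 0.25 ± 0.28 between old and young (95% interval -0.33 to 0.82, adjusted p = 0.749), -0.43 ± 0.27 between old repopulated and old (adjusted p = 0.647) and 0.20 ± 0.33 between young repopulated and young (adjusted p = 0.839). Old repopulated against young libraries gave -0.18 ± 0.25 (95% interval -0.69 to 0.33, adjusted p = 0.662), a value of opposite sign in the runs: -0.91 in the higher run (adjusted p = 0.0139) and 0.19 in the lower (adjusted p = 0.874). In old repopulated libraries of the higher run Cd22 was at 38.7, 37.1 and 24.6 CPM, below all 4 young and all 3 old libraries of that run. The share of all genes with groups apart in this way is not given here. Within that run 41.1% of genes were called between old repopulated and young and 12.7% between old repopulated and old libraries. In the lower run it was at 53.0, 25.3, 88.6, 83.1 and 76.4 CPM. The difference between the runs in this comparison was -1.11 ± 0.44 (adjusted p = 0.153).

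Of the B cell markers reported here, 3 were at or near 0. Pax5 was at 0 in all 7 young libraries, and Cd79a, Ms4a1 and Pax5 stayed under 0.5 CPM in every library, while Cd22 was at 24.6 CPM or more. Cd79b (12.9 to 18.8 CPM in young libraries) and Ighm (147 to 208 CPM) were B cell list members with a clear level. Both fell in old repopulated against young libraries (Cd79b log2 -1.63, adjusted p = 0.00892, and Ighm -1.16, adjusted p = 0.0245). Cd79b also fell in young repopulated against young ones (-2.43, adjusted p = 0.0454). In old repopulated against young libraries they were 2 of 5 list genes that passed the filter, where 5.92% of all genes were called lower. The other 3 were positive there, and the median log2 difference over the 5 was 1. In young repopulated against young libraries 1 of the 5 was called lower (0.513% of all genes) and 1 was positive. In old against young libraries 3 of the 5 were positive, with none called and a median of 2.12. The summed level of the 9 genes of the B cell list was 160 to 230 CPM in young, 87.4 to 122 CPM in young repopulated, 90.9 to 328 CPM in old and 28 to 187 CPM in old repopulated libraries. It was 69.9, 32.2, 45.2 and 28 CPM in old repopulated replicates 2, 6, 7 and 8, the libraries with the lowest Cd22. Old repopulated replicate 5 had nearly the same sum as replicate 2, 70.1 CPM, with Cd22 at 76.4 CPM. Young repopulated replicate 1 had the highest Cd22 level of all libraries, 96.0 CPM, with a sum of 106 CPM, below every young library. The part of these genes in the Cd22 values was not tested.

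Cd33, the gene with the highest level, encodes a myeloid inhibitory receptor in humans, and the mouse protein differs from the human one in its tail. Young libraries held 601 to 729 CPM with a median of 671 CPM, and the young repopulated ones 631, 712 and 659 CPM. Old libraries were at 653, 494, 319, 574 and 432 CPM (replicates 1 to 5), so 4 of 5 lay below the lowest young library. Old repopulated libraries ran from 295 CPM through 517 CPM to 721 CPM, with replicates 1 and 2 (721 and 719 CPM) within the young range.

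Cd33 was at log2 -0.43 ± 0.19 in old against young (95% interval -0.83 to -0.03, adjusted p = 0.28) and at -0.38 ± 0.17 in old repopulated against young libraries (adjusted p = 0.133), neither of which was called by edgeR without a run term. With the run as a term the latter was called (-0.48, adjusted p = 0.0284), and limma-voom called both (-0.50, adjusted p = 0.0172, and -0.56, adjusted p = 0.00164). Repopulation gave 0.00 ± 0.23 in young mice (95% interval -0.46 to 0.47, adjusted p = 0.997) and 0.06 ± 0.19 in old mice (95% interval -0.33 to 0.44, adjusted p = 0.971). Within the higher run Cd33 was lower in old repopulated than young libraries by a log2 difference of -0.85 (adjusted p = 0.00435) and than young repopulated ones by -0.86 (adjusted p = 0.00718). Within the lower run the difference from young was -0.12 (adjusted p = 0.863). The libraries with the lowest Cd33 were old repopulated replicates 6 and 8 (295 and 335 CPM) and old replicate 3 (319 CPM). They were also those with the lowest microglia marker sums, 9660, 8840 and 9580 CPM. Old repopulated replicate 2, with a sum of 15600 CPM, below every young library, had Cd33 within the young range (719 CPM). Replicate 7 had a lower sum than replicate 5 (13100 and 14000 CPM) and a higher Cd33 level (488.5 and 411.3 CPM). The part of the microglia content in the Cd33 values was not tested.

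Siglece encodes an ITIM-bearing receptor of neutrophils, monocytes and microglia. Young libraries held 23.6 to 34.7 CPM with a median of 27.5 CPM, and the 3 young repopulated ones 35.5, 55.0 and 45.5 CPM, all above every young library. Old libraries were at 16.4 to 30.2 CPM with a median of 27.1 CPM, and old repopulated ones at 24.7 to 62.2 CPM with a median of 30.0 CPM. The difference was log2 0.69 ± 0.25 between young repopulated and young (95% interval 0.18 to 1.20, adjusted p = 0.171) and 0.57 ± 0.21 between old repopulated and old libraries (95% interval 0.12 to 1.01, adjusted p = 0.302). Neither was called in the fit of all libraries without a run term. Within the higher run the young difference was 0.86 (adjusted p = 0.0113) and the old one 0.45 (adjusted p = 0.143). The effect of repopulation in old less that in young mice was -0.12 ± 0.33 for Siglece (adjusted p = 0.969). Between old and young libraries the difference was -0.24 ± 0.22 (adjusted p = 0.669).

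Siglecf is known from eosinophils and the macrophages of the lung's air spaces. Young libraries held 32.2 to 59.0 CPM with a median of 43.0 CPM, the young repopulated ones 30.9, 18.2 and 45.5 CPM, and the old ones 54.9, 31.5, 18.2, 38.1 and 32.3 CPM (replicates 1 to 5). Old repopulated libraries fell into separate levels. Replicates 2, 6, 7 and 8 were at 7.16, 7.37, 9.06 and 7.33 CPM, below every library of the other groups, while replicates 1, 3 and 4 were at 57.4, 47.0 and 49.2 CPM, within the young range, and replicate 5 was at 19.6 CPM.

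With this spread Siglecf was not called in the fit of all libraries without a run term, at log2 -0.85 ± 0.42 between old repopulated and young (95% interval -1.73 to 0.03, adjusted p = 0.179) and -0.45 ± 0.46 between old repopulated and old libraries (adjusted p = 0.83). With the run as a term Siglecf was called in old repopulated against young libraries (-1.31, adjusted p = 0.0232), as it was by limma-voom (-1.66, adjusted p = 0.000417). Old against young gave -0.39 ± 0.48 (adjusted p = 0.775) and young repopulated against young -0.54 ± 0.58 (adjusted p = 0.736). Within the higher run, which holds replicates 6, 7 and 8, Siglecf was lower in old repopulated libraries than in young (log2 -2.46, adjusted p = 0.000113), old (-1.90, adjusted p = 0.00466) and young repopulated ones (-2.02, adjusted p = 0.000832). Within the lower run it was at -0.43 against young (adjusted p = 0.815). The difference between the runs in the old repopulated against young comparison was -2.03 ± 0.66 (unadjusted p = 0.00632, adjusted p = 0.0965), where 261 of 18720 genes were called and none of the 6 Siglec genes was.

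Eosinophil markers were low. The summed level of 6 of them was 0.356 to 8.33 CPM over all libraries, highest in old repopulated replicate 3, where Siglecf was at 47.0 CPM. Epx, an eosinophil granule enzyme, was at 0 in every young, young repopulated and old library. None of the 6 was at 0 throughout the old repopulated group. Of 2 that passed the filter, 1 was called higher and 1 lower in old repopulated against young libraries (9.29% and 5.92% of all genes). Microglia marker sums in old repopulated replicates 2, 6, 7 and 8 were 15600, 9660, 13100 and 8840 CPM. Replicate 5 had a sum of 14000 CPM with Siglecf at 19.6 CPM, and old replicate 3 had 9580 CPM with Siglecf at 18.2 CPM. The part of the microglia content in the Siglecf values was not tested.

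Siglecg, the mouse counterpart of human SIGLEC10, is best known for restraining the B-1 class of B cells. It was scarce, at 0 to 2.77 CPM in young (median 1.08 CPM), 1.41 to 2.22 CPM in young repopulated, 1.28 to 9.11 CPM in old (median 4.08 CPM) and 0.338 to 5.46 CPM in old repopulated libraries (median 2.71 CPM). The difference was log2 1.78 ± 0.69 between old and young (95% interval 0.36 to 3.20, adjusted p = 0.192) and 1.13 ± 0.62 between old repopulated and young libraries (adjusted p = 0.227), neither of which was called by edgeR, while limma-voom called the first (1.73, adjusted p = 0.0296). Within the higher run Siglecg was higher in old (2.28, adjusted p = 0.000957) and in old repopulated (1.95, adjusted p = 0.000716) than in young libraries, and within the lower run the values were 0.59 (adjusted p = 1) and 0.30 (adjusted p = 0.956). Old replicate 3, the library with the highest Siglecg level, 9.11 CPM, also had the highest monocyte marker sum of its group, 4530 CPM. Old repopulated replicates 6 and 8 had higher sums, 7450 and 7380 CPM, with lower Siglecg levels, 4.04 and 5.46 CPM. The part of monocytes in the Siglecg values was not tested.

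**Figure D3:**
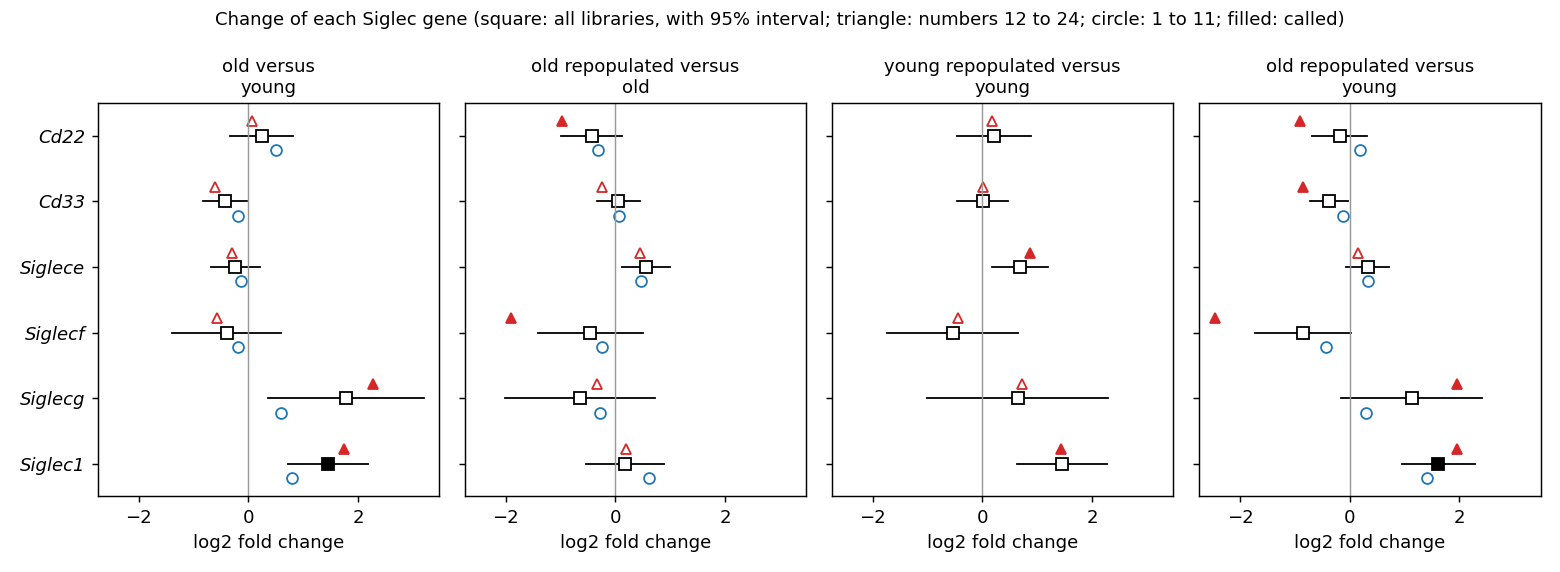
Log2 difference of each Siglec gene in 4 comparisons, with squares and 95% intervals for the fit of all libraries, triangles for libraries numbered 12 to 24 and circles for those numbered 1 to 11; filled symbols passed the test. In the fit of all libraries without a run term only Siglec1 passed, at 1.45 in old and 1.62 in old repopulated against young libraries.

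Over the 6 genes, edgeR called none between old repopulated and old libraries, where 0.278% of all genes were called. At an unadjusted p under 0.05 there was 1 Siglec gene, Siglece. Neither DESeq2 (1.55% of all genes) nor limma-voom (2.21%) called any. Between old repopulated and young repopulated libraries edgeR called none of the 6 and none of all 18720 genes (0%), of which 2183 had an unadjusted p under 0.05. None of the 6 was under that level or called by DESeq2 (0.433% of all genes), and limma-voom called 2, Cd33 and Siglecf (17%). The difference of repopulation effects gave no call either by edgeR (0% of all genes, 1542 at an unadjusted p under 0.05). Siglec1 was the only Siglec gene at an unadjusted p under 0.05. None was called by DESeq2 (0.219% of all genes) or limma-voom (0.807%).

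The higher run made many more calls at large, so its counts have their own background. There 5 of 6 Siglec genes were called between old repopulated and young libraries, all but Siglece, where 41.1% of 17186 genes were called. Of the same 6, 2 were called between old and young libraries (Siglec1 and Siglecg, 15.7% of all genes), 2 between old repopulated and old (Cd22 and Siglecf, 12.7%) and 2 between young repopulated and young (Siglec1 and Siglece, 9.3%). Between old repopulated and young repopulated libraries 5 were called, all but Siglec1, where 36.3% of genes were. In the lower run none of the 6 was called in the 3 comparisons it allows, where at most 2 of 18746 genes were. Group sizes there are 3 young, 2 old and 5 old repopulated libraries.

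Among the 8 old repopulated libraries, the levels of the 6 genes were compared in 15 pairs (log2 of CPM + 0.5). No pair passed after adjustment, the smallest adjusted p being 0.107 for Pearson's r and 0.161 for Spearman's rho, both from exact permutation tests. The largest coefficient in a pair without Siglecf was that of Cd33 and Siglece, with r = 0.78 (exact permutation p = 0.0217) and rho = 0.86 (exact permutation p = 0.0107). Without the 2 libraries farthest from the median of Cd33, r was 0.89. Since Siglecf fell into separate levels, no coefficient is given for its pairs. Old repopulated replicates 2, 6, 7 and 8, with Siglecf under 10 CPM, had Cd22 at 25.3, 38.7, 37.1 and 24.6 CPM, the 4 lowest Cd22 values of all 23 libraries. Their Siglec1 levels were 243, 320, 295 and 229 CPM.

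**Figure D4:**
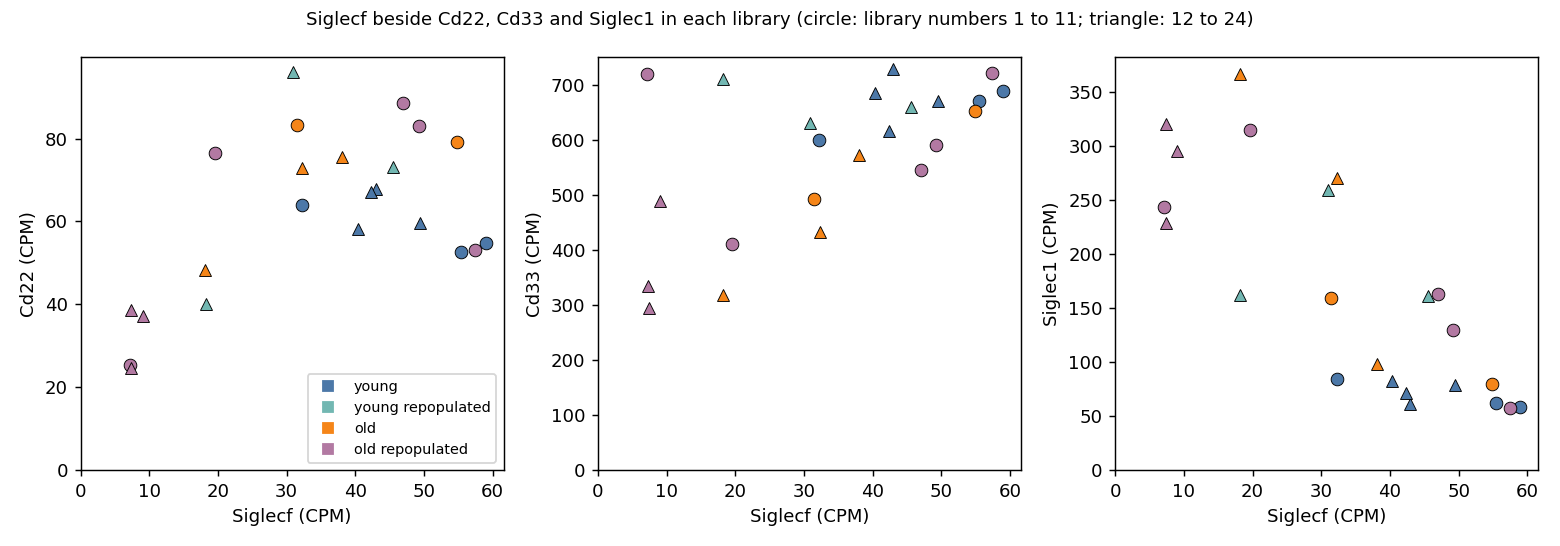
Siglecf in CPM against Cd22, Cd33 and Siglec1 in CPM; each point is 1 library, coloured by group, with circles for libraries numbered 1 to 11 and triangles for 12 to 24. In the panel of Cd22, 4 old repopulated libraries lie apart at 7.16 to 9.06 CPM of Siglecf and 24.6 to 38.7 CPM of Cd22.

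Across all 23 libraries, the genes whose log2 CPM was most like each Siglec gene were taken from 9582 other genes of mean CPM of at least 5, by Pearson's r, as a description; the libraries share groups, runs and cell content. Siglec1 was nearest to Ms4a7 (r = 0.965), a marker in the border macrophage list, then Plxna1 (0.959) and S1pr2 (0.956). Siglecf was nearest to Ric3 (0.969), Tppp (0.962) and Adora3 (0.958), and Cd33 to Serinc3 (0.956), Ccni (0.955) and Slc46a3 (0.95). Siglece was nearest to Rpl3 (0.907), Rpl21 (0.888) and Tmem176b (0.877), the first and the second of which encode ribosomal proteins. Siglecg was nearest to Papd5 (0.881), Atg4c (0.866) and Snapc3 (0.864), and Cd22 to Lgals3bp (0.82), H2-M3 (0.82) and Zfp976 (0.815). Without young replicate 3, none of the 3 stayed among the nearest 3 for Siglecg, whose level is 0 in that library, and 1, Ms4a7, did for Siglec1. By Spearman's rho none of these 3 stayed among the nearest 3 for Cd22, Siglec1, Siglecf and Siglecg, and 1 did for Cd33 and for Siglece.

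Of the other Siglec-type genes, Siglech is the microglial receptor that pairs with DAP12. It stood at 616 ± 92.4 TPM (SD, n = 7) in young libraries, above Cd33, at 561 ± 52 TPM (n = 3) in young repopulated, 395 ± 159 TPM (n = 5) in old and 325 ± 227 TPM (n = 8) in old repopulated libraries. In CPM it was at 526, 353, 173, 488 and 307 in the 5 old libraries, and at 102 to 770, with a median of 259, in the old repopulated ones, against 478 to 730 in young. Siglech was at log2 -0.66 ± 0.36 in old (adjusted p = 0.404) and -0.82 ± 0.32 in old repopulated (adjusted p = 0.0795) against young libraries, not called by edgeR in either. The latter was called with the run as a term (-1.07, adjusted p = 0.0104), by DESeq2 (-0.83, adjusted p = 0.0388), by limma-voom (-1.19, adjusted p = 0.000403) and within the higher run (-1.65, adjusted p = 0.00301), not within the lower (-0.60, adjusted p = 0.548), and was also called without old repopulated replicate 1 (-1.10, adjusted p = 0.00648) or replicate 4 (-0.94, adjusted p = 0.048). Siglec15 was at 0 in all young, young repopulated and old libraries, and Mag, a Siglec of myelin-forming cells, was at 5.58 to 27.0 CPM over all libraries. Mag was not called by edgeR in the fit of all libraries without a run term, and was called in old repopulated against young libraries with the run as a term, by limma-voom and within the higher run.

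The signalling partners of Siglecs were a list of 15 genes, all tested. Ptpn6 (SHP-1) was at 356 ± 25 CPM (SD, n = 7) in young, 375 ± 10.6 (n = 3) in young repopulated, 348 ± 21 (n = 5) in old and 357 ± 32.4 (n = 8) in old repopulated libraries. Ptpn11 (SHP-2) was at 77 ± 4.6, 74.4 ± 3.44, 84.7 ± 9.22 and 87.8 ± 12.5 CPM in the same order. Inpp5d, the lipid phosphatase SHIP-1, was at 957 ± 65.2, 1000 ± 74.0, 848 ± 60.2 and 809 ± 144 CPM. Tyrobp (DAP12) was at 794 ± 98.5, 957 ± 54.0, 686 ± 46.6 and 816 ± 113 CPM. Its 3 young repopulated libraries, at 898 CPM or more, lay above all young ones, as 5.97% of all genes did.

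None of these 4 genes was called by edgeR in the fit of all libraries without a run term, in any of the 6 comparisons. Inpp5d at log2 -0.24 ± 0.09 (adjusted p = 0.0846) and Ptpn11 at 0.19 ± 0.08 (adjusted p = 0.117) in old repopulated against young libraries were called without old repopulated replicate 1 (-0.29, adjusted p = 0.0135, and 0.25, adjusted p = 0.028). With the run as a term Inpp5d was called at -0.27 (adjusted p = 0.0361) and Ptpn11 at 0.22 (adjusted p = 0.0298). Both were also called within the higher run, at -0.55 (adjusted p = 0.00028) and 0.33 (adjusted p = 0.00973), and within the lower run they were at -0.01 (adjusted p = 0.986) and 0.13 (adjusted p = 0.722). DESeq2 called Inpp5d and limma-voom both in this comparison, and Tyrobp was called in old against young libraries by limma-voom and within the higher run. Of the 15 partners, 1 rose and 1 fell in old repopulated against young libraries, where 9.29% of all genes were called higher and 5.92% lower, and edgeR called none in the other 5 comparisons. In those, 1 to 3 had an unadjusted p under 0.05. DESeq2 called at most 1 (old against young, 5.11% of all genes). The most by limma-voom was 5 (old repopulated against young repopulated, 17% of all genes). Cbl, a ubiquitin ligase that targets activated receptors, rose by log2 0.36 ± 0.11 (adjusted p = 0.0314), and Blnk, an adaptor of Syk and Btk signalling, fell by 0.42 ± 0.14 on the log2 scale (adjusted p = 0.0406). Within the lower run neither was called, with Cbl at 0.48 (adjusted p = 0.384) and Blnk at -0.32 (adjusted p = 0.573), and within the higher run both were, at 0.39 (adjusted p = 0.00238) and -0.66 (adjusted p = 0.00613). Leaving out 1 library ended the call of Cbl for 6 libraries, young replicates 1 and 3 and old repopulated replicates 5 to 8 (adjusted p = 0.0516 to 0.066), and that of Blnk for 14 (highest adjusted p = 0.0846, without old repopulated replicate 6). Those 14 were young replicates 1, 2, 4, 5 and 6, young repopulated replicates 2 and 3, old replicate 2 and old repopulated replicates 2, 3, 5, 6, 7 and 8.

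Genes that make or break down the sialic acid ligands were counted next. Npl, the lyase that breaks down free sialic acid, fell in both repopulated groups against young. It was at 76.6 to 150 CPM in young libraries (median 108 CPM), at 39.9, 23.9 and 39.2 CPM in young repopulated, at 40.0 to 76.0 CPM in old (median 69.8 CPM) and at 27.9 to 64.1 CPM in old repopulated libraries (median 37.5 CPM). All libraries of the other 3 groups lay below all young ones, the old group narrowly (76.0 against 76.6 CPM). The share of all genes with groups apart in this direction is not given here. Npl fell by 1.69 ± 0.29 on the log2 scale in young repopulated (adjusted p = 0.005) and by 1.40 ± 0.20 in old repopulated libraries (adjusted p = 0.000198). The old libraries were at log2 -0.78 ± 0.23 against young for Npl, not called in the fit of all libraries without a run term (adjusted p = 0.0688). This fall was called by DESeq2, by limma-voom, with only those groups fitted and within the higher run. The young repopulated call was lost without young repopulated replicate 2 (log2 -1.45, adjusted p = 0.0794), and within the lower run the old repopulated value was -0.87 (adjusted p = 0.346). In young repopulated and in old repopulated against young, Npl was the 1 called gene in the list of 10 for sialic acid synthesis and activation. Of all genes, 0.513% and 5.92% were called lower there. The list holds this breakdown gene beside genes of synthesis, and edgeR called no other member in these comparisons. None of the 10 was called in old against young by edgeR in the fit of all libraries without a run term, with 2 at an unadjusted p under 0.05. DESeq2 (5.11% of all genes) and limma-voom (12.6%) each called 2 there, Cmas and Npl. Gne, which starts the synthesis, was at 14.9 ± 2.06, 16.9 ± 0.78, 12.9 ± 2.23 and 14.9 ± 2.7 CPM in young, young repopulated, old and old repopulated libraries.

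Sialyltransferases attach the sialic acid to glycans. Of 20 in the list, 14 passed the filter on low counts. In old against young libraries 2 rose and none fell (2.6% of all genes were called higher), in young repopulated against young 2 rose and none fell (0.828% of all genes were called higher and 0.513% lower), and in old repopulated against young 5 rose and 2 fell (9.29% higher and 5.92% lower). The median log2 difference over the 14 was -0.13, -0.11 and 0.03 in these comparisons, against -0.01, -0.04 and -0.02 over all genes tested.

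St8sia6, which adds a sialic acid onto another sialic acid, rose in all 3 of these comparisons. It was at 7.28 to 17.2 CPM in young libraries (median 9.20 CPM), at 42.7, 40.3 and 46.8 CPM in young repopulated, at 39.5, 30.1, 12.5, 37.7 and 23.9 CPM in old, and at 22.8 to 94.4 CPM in old repopulated libraries (median 48.0 CPM). Both repopulated groups lay above all young libraries, and the old group overlapped with the young one through replicate 3. For the young repopulated group 5.97% of all genes lay above in this way, and for the old repopulated group the share is not given here. The rise was log2 1.33 ± 0.32 in old (adjusted p = 0.0247), 1.92 ± 0.36 in young repopulated (adjusted p = 0.0099) and 2.16 ± 0.30 in old repopulated libraries (adjusted p = 0.000161). The old call was lost without young replicate 4, 5, 6 or 7 or old replicate 4 (adjusted p = 0.0502 to 0.0616), and the young repopulated one without young repopulated replicate 1 (adjusted p = 0.0514). Within the lower run St8sia6 was at 1.19 in old (adjusted p = 1) and 2.00 in old repopulated (adjusted p = 0.0951) against young libraries.

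St8sia1, the enzyme that starts the b-series gangliosides, rose by log2 2.15 ± 0.41 in young repopulated (adjusted p = 0.0112) and by 1.60 ± 0.34 in old repopulated libraries (adjusted p = 0.00357). Its level was 1.69 to 4.19 CPM in young and 9.83, 12.4 and 14.3 CPM in young repopulated libraries. The young repopulated call was lost without young repopulated replicate 3 (log2 2.02, adjusted p = 0.0546). St3gal4, which caps galactose on glycoproteins, rose by log2 0.98 ± 0.23 in old (adjusted p = 0.0223) and by 0.82 ± 0.21 in old repopulated libraries (adjusted p = 0.0121). Its old call was lost without young replicate 6 (adjusted p = 0.0505), old replicate 3 (log2 0.72, adjusted p = 0.162) or old replicate 5 (adjusted p = 0.0727). In old repopulated against young libraries of the lower run St8sia1 was at 0.98 (adjusted p = 0.434) and St3gal4 at 0.61 (adjusted p = 0.42), against 2.31 (adjusted p = 0.000406) and 1.15 (adjusted p = 0.000966) in the higher run. In old against young libraries St3gal4 was at 0.55 in the lower run (adjusted p = 1) and 1.19 in the higher (adjusted p = 0.00258).

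In the fit of all libraries without a run term, the others were called in old repopulated against young libraries alone. Other settings called them elsewhere too. In old against young, St3gal1 was called by DESeq2, by limma-voom, with only those groups fitted and within the higher run. The higher run also called St8sia4 there. In young repopulated against young, St8sia4 and St3gal5 were called with only those groups fitted. In old repopulated against young repopulated, limma-voom and the higher run called St3gal1, St3gal2 and St3gal5. St3gal1 rose by log2 1.68 ± 0.39 (adjusted p = 0.0064) and St8sia4 by 1.29 ± 0.31 (adjusted p = 0.00775). Within the lower run they were at 0.87 (adjusted p = 0.45) and 1.12 (adjusted p = 0.446), and within the higher run at 2.47 (adjusted p = 0.000225) and 1.58 (adjusted p = 0.000306). St3gal5, the enzyme that makes ganglioside GM3, fell by 0.77 ± 0.24 on the log2 scale (adjusted p = 0.0307) and St3gal2 by 0.64 ± 0.20 (adjusted p = 0.0374). The call of St3gal5 was lost without young replicate 4 or 5 or old repopulated replicate 2, 6, 7 or 8 (adjusted p = 0.0501 to 0.0637). That of St3gal2 was lost without any of young replicates 1, 2, 4, 5, 6 and 7 and old repopulated replicates 2, 5, 6, 7 and 8 (adjusted p = 0.0555 to 0.0766). Within the lower run St3gal5 was at -0.40 (adjusted p = 0.615) and St3gal2 at -0.26 (adjusted p = 0.716), and within the higher run at -1.57 (adjusted p = 0.000102) and -1.36 (adjusted p = 0.000276). The monocyte and border macrophage sums given beside Siglec1 moved with these comparisons too, and their part in them was not tested. Of the 9 sialidases and genes of sialic acid modification, 7 passed the filter and edgeR called none in any comparison. At most 3 had an unadjusted p under 0.05, and DESeq2 called none. The most by limma-voom was 5, in old repopulated against young libraries, where it called 35.5% of all genes.

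**Figure D5:**
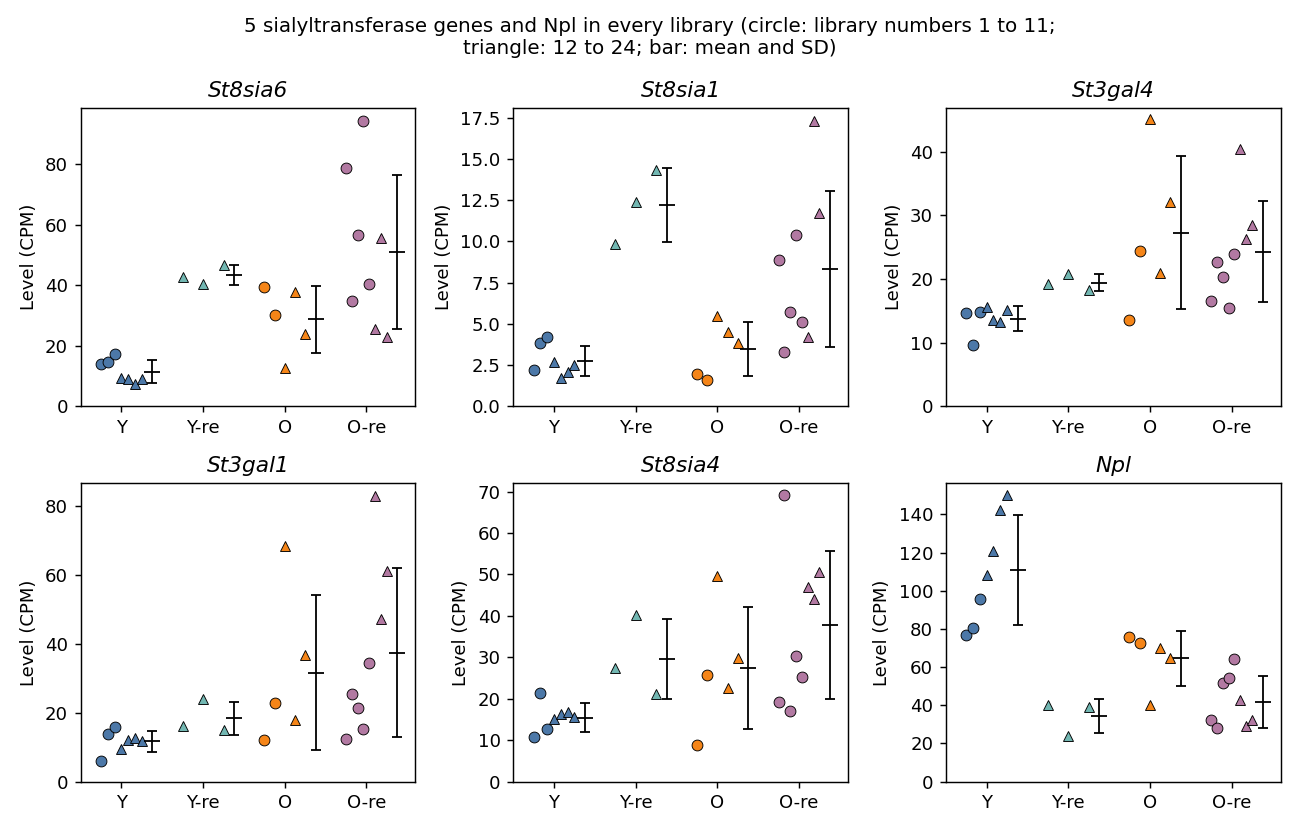
Level in CPM of 5 sialyltransferase genes and of Npl in each library by group, with the group mean and SD as bars, and with circles for libraries numbered 1 to 11 and triangles for 12 to 24. St8sia6 lies at 7.28 to 17.2 CPM in young and 40.3 to 46.8 CPM in young repopulated libraries, and Npl at 76.6 to 150 CPM and 23.9 to 39.9 CPM.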

How the data were processed

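Per the submitters' processing notes, FastQC 0.11.5, STAR, RSEM and limma were used with build GRCm38; no other version, annotation or strand setting is stated. Inputs of 2.4 to 147 ng RNA went into stranded poly(A) library preparation and were read as single 50 nt reads, per the labels' protocols. The deposited expected counts, estimates that divide reads among similar genes, were made by the authors for 53090 genes per library; 87.26% were whole within 1e-06, zeros included. Values of Siglec1 and Siglece were whole in all 23 libraries, and those of the other 4 genes were not in some. They were rounded before testing. The deposited TPM values were used for levels per length only. Rows were matched by symbol, and all 6 identifiers have the same version in GENCODE M21.

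In R 4.3.3, edgeR 4.0.16 (TMM, filterByExpr, quasi-likelihood test) was fitted to all 23 libraries with 1 coefficient per group, for 18720 genes and 6 contrasts; a call is a Benjamini-Hochberg adjusted p under 0.05 over all genes. All 6 Siglec genes passed the filter. The test was tried on simulated counts first. Alternatives were RLE factors, no filter, mean CPM of at least 1, DESeq2 1.42.0, voom with sample weights (limma 3.58.1), only the groups compared, the run of library numbers as a term, each run alone and leaving out each library. The difference between runs was added after the data were seen. The genes, gene lists and rule for named genes (all 6 Siglecs, the 3 most alike genes of each, called pathway genes, and Tyrobp, Ptpn6, Ptpn11, Inpp5d and Siglech always) were chosen with earlier results of these data known. No pair of libraries in a group agreed within counting noise (chi-square per gene 17.8 or more in 62 pairs).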

Additional observations from a re-analysis of the deposited data

Results flagged for a closer look

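In groups of 4 to 10 libraries, the gap between the highest or lowest library and its neighbour was set against Dixon's 95% limit, for 21 genes in 63 groups; chance alone gives about 1 in 20. None of the 6 Siglec genes had such a library. Ptpn11 in old replicate 3 was at 101 CPM against 77.3 to 82.8 CPM in the other old libraries, a gap of 0.766 of the range and past the limit. St3gal4 in young replicate 2 was at 9.59 CPM against 13.2 to 15.5 CPM in the other young libraries, a gap of 0.617 of the range and past the limit.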

How the results depend on the processing

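No paired analysis was possible because the labels give no replicate numbers that the groups share. The number of the 6 Siglec genes called depended on the processing in every comparison. In old against young libraries it was 1, where 2.83% of all genes were called. There it was 3 by voom (12.6% of all genes), 2 in the higher run (15.7%) and 0 in the lower run (0.00533%). Leaving out 1 library gave 0 to 1. In old repopulated against young it was 1, where 15.2% of all genes were called. There it was 3 by voom (35.5% of all genes) and 3 with the run as a term (Cd33, Siglec1 and Siglecf, 24.5%). It was 5 in the higher run (41.1%), 0 in the lower run (0.0107%) and 1 in every fit that left out 1 library. In young repopulated against young it was 0, where 1.34% of all genes were called. There it was 1 by DESeq2 (Siglec1, 4.2% of all genes), 2 by voom (13.8%) and 2 with only those groups fitted (7.5%). It was 1 with the run as a term (Siglece, 1.74%), 2 in the higher run (9.3%), and 0 to 1 leaving out 1 library. In old repopulated against old it was 0 (0.278% of all genes), with 2 in the higher run (12.7%). In old repopulated against young repopulated it was 0 (0%), with 2 by voom (17%) and 5 in the higher run (36.3%). For the repopulation effect in old less that in young it was 0 (0%), with 1 in the higher run (Siglecf, 8.87%). Leaving out 1 library gave 0 in these 3. The cause of these moves was not tested, beyond the fewer libraries in each run.

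Signs turned for values near 0. Cd33 in old repopulated against old became -0.06 by voom, -0.04 with the run term and -0.25 in the higher run, and in young repopulated against young -0.01 with a mean CPM of at least 1 and -0.05 by voom. For the repopulation effect in old less that in young, Cd33 became -0.02 by voom, -0.17 with the run term and -0.26 in the higher run, and Siglecf -0.88, -0.72 and -1.46. In old repopulated against young, Cd22 became 0.19 in the lower run, Tyrobp -0.08 by voom and -0.20 in the higher run, and Ptpn6 -0.01 with a mean CPM of at least 1 and by voom, with values that round to 0 by RLE and DESeq2. The cause was not tested. Leaving out 1 library gave -0.10 to 0.52 for Cd22 and -0.02 to 0.04 for Cd33 in young repopulated against young, -0.07 to 0.17 for Cd33 and -0.03 to 0.53 for Siglec1 in old repopulated against old, and -0.60 to 0.05 for Siglecf in old repopulated against young repopulated. It gave -0.07 to 0.15 for Cd33, -0.22 to 0.45 for Siglecf and -0.29 to 0.00 for Siglece for the difference of repopulation effects, and -0.02 to 0.09 for Tyrobp and -0.02 to 0.05 for Ptpn6 in old repopulated against young. Of the other values of the 6 genes, 800 leaving out 1 library and 258 under the other alternatives kept direction and side of the threshold.

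Siglecg, at 9.11 CPM or less, is limited by its low counts, and 3 young repopulated libraries, all in the higher run, limit every comparison that uses them.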
